A study of Mus musculus with 47 samples.

Results

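Cells find foreign or misplaced nucleic acid with a small set of receptors, and 10 of the genes of that system are described here, out of 56748 genes counted. They were taken by name: Zbp1, Cgas, Sting1, Ifih1, Mavs, Tlr3, Tlr7, Tlr9, Aim2 and Ripk3. The list was chosen by the level of Zbp1 in m.12,436 60% tumors against control tumors, with results of these data in view, so the differences of Zbp1 between tumor groups are given as a description with no test.

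The libraries came from B78-D14, an amelanotic, Cdkn2a-deficient mouse melanoma line derived from B16, in which a mitochondrial base editor had introduced truncating mutations into Mt-Nd5, a complex I gene of the mitochondrial genome. Heteroplasmy is the share of mitochondrial genomes that carry the mutation. Cultures were m.11,944 60% cells (n = 4) and unedited wild-type control cells (n = 4). Tumors were fragments of subcutaneous tumors grown in immunocompetent male C57BL/6 mice from control cells (n = 4), m.12,436 40% cells (n = 7) and m.12,436 60% cells (n = 7), and no sample received a treatment. The cultures and the tumors therefore carry different mutations, each edited group is one engineered cell population, and a fragment holds host cells beside the melanoma cells. The labels do not say that replicates were separate cultures or animals beyond numbering them, so that p-values measure the spread between these samples.

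Nucleic acid sensing is divided by compartment and ligand. In the cytosol, Cgas binds double-stranded DNA and makes a cyclic dinucleotide that activates Sting1 on the endoplasmic reticulum, while Ifih1 (MDA5) binds long double-stranded RNA and signals through Mavs on the mitochondrial outer membrane. Tlr3, Tlr7 and Tlr9 read double-stranded RNA, single-stranded RNA and unmethylated CpG DNA in endosomes. Aim2 binds DNA and assembles an inflammasome, and Zbp1 binds nucleic acid in the Z conformation and can recruit Ripk3, the kinase of necroptosis. Most of these routes end in interferon, and interferon in turn raises the expression of several of the sensors, Zbp1 and Ifih1 among them. In tumors, sensors are used both by the cancer cells and by the macrophages, dendritic cells and lymphocytes around them.

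The promoters of Ifih1 and Mavs are shown because this receptor and its adaptor are in the same pathway, and their mean differences between m.12,436 60% and control tumors, given further on, were among the highest and the lowest of the 10 genes. They were searched on both strands for the core of the interferon-stimulated response element, GAAA followed after any 2 bases by GAAA, and for TTCNNNGAA, the gamma-activated site. Matches are in capitals, and the sequences are RefSeq promoter windows of 300 bases (250 before the start site and 50 from it onward) on the minus strand at chr2:62476550-62476849 for Ifih1 and on the plus strand at chr2:131075733-131076032 for Mavs, both in GRCm39.
Ifih1: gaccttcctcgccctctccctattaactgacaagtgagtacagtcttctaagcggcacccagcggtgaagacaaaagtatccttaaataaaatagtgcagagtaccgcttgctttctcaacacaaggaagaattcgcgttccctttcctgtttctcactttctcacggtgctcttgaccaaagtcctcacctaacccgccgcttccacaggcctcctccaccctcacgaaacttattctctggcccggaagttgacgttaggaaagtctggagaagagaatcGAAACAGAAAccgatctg
Mavs: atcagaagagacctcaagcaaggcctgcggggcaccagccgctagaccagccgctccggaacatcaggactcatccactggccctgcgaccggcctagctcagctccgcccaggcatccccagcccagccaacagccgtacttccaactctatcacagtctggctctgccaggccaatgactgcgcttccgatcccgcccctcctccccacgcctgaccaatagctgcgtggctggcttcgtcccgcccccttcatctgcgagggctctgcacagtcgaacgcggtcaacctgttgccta
The Ifih1 window held the response element core once, on its own strand, starting at base 33 after the start site, and the Mavs window held neither motif. RefSeq windows were matched for 7 of the 10 genes (Cgas, Ifih1, Mavs, Tlr3, Tlr9, Aim2 and Ripk3). Of these, 1 (Ifih1) held the response element core and 0 held the gamma-activated site, against 3.44% and 8.30% of all 32851 promoter windows of that length in the table. A match of this kind is a run of letters and not a measured binding site.

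Levels are given as CPM, the counts of a gene per 1000000 counts of its library after scaling for composition. Libraries held 16475735 to 36173502 counts. The leukocyte markers summed to between 360 and 765 CPM in tumors and to at most 0.569 CPM in cultures, and all 8 T and NK cell markers were at 0 in both groups of cultures. The melanocyte lineage markers, of which Tyr was at 0 in all 8 cultures, summed to between 9.01 and 26.8 CPM in the cultures. CPM per kilobase of exon is used where levels of different genes are set side by side. In these bulk samples, fewer cells of a type and less RNA per cell cannot be told apart.

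The cultures held almost none of 5 of the 10 transcripts. Zbp1 (chr2:173033815-173060724, minus strand) and Ripk3 (chr14:56022452-56026324, minus strand) had 0 counts in all 8 cultures, which allows up to 0.0297 CPM over the m.11,944 60% cells and 0.0291 CPM over the control cells, at 3 counts over each group. Cgas (chr9:78337802-78350535, minus strand) had 1, 0, 0 and 1 counts in the edited cultures and 0, 0, 2 and 3 in the control cultures. Tlr7 (chrX:166086758-166113605, minus strand) had 1, 1, 5 and 5 counts against 1, 2, 6 and 5. Cgas, Tlr7 and both necroptosis partners were thus at or near the detection limit in cultured B78-D14 cells of either genotype, while the DNA receptors Aim2 and Tlr9 were measured, as given below.

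Ifih1 (chr2:62425714-62476607, minus strand) was also close to 0, with 0, 0, 2 and 0 counts in the edited cultures and 6, 8, 3 and 9 in the control cultures. The groups did not overlap, but the counts were too low for the filter. Without a filter, the fitted difference was -3.37 on the log2 scale (SE 0.92), with an adjusted p of 0.798 by edgeR's quasi-likelihood test over 26130 genes.

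The adaptors were expressed strongly in culture. Sting1 (chr18:35866732-35873607, minus strand) stood at 45.7, 44.8, 60.7 and 62.7 CPM in m.11,944 60% cells and at 56.1, 51.6, 63.4 and 65.4 CPM in control cells. Mavs (chr2:131075442-131096740, plus strand) stood at 54.1, 49.2, 51.9 and 61.1 CPM against 36.7, 33.6, 49.9 and 60.8 CPM. Both pairs of groups overlapped, while within same-numbered pairs the edited culture had less Sting1 in 4 of 4 and more Mavs in 4 of 4. For the endosomal receptors, Tlr9 (chr9:106099797-106104082, plus strand), which reads CpG DNA, was at 1.29, 1.06, 1.27 and 1.09 CPM in the edited and at 0.812, 1.09, 1.23 and 1.48 CPM in the control cultures, and these also overlapped.

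Tlr3 (chr8:45848702-45864117, minus strand), the double-stranded RNA receptor of the endosome, was at 1.68, 0.979, 3.54 and 3.02 CPM in the edited and at 0.598, 0.544, 2.15 and 2.60 CPM in the control cultures. The edited culture had the higher level in 4 of 4 same-numbered pairs. The level differed with the replicate number in both groups. Cultures 1 and 2 of both groups averaged 0.951 CPM and lay between 0.544 and 1.68 CPM, and cultures 3 and 4 averaged 2.83 CPM and lay between 2.15 and 3.54 CPM. Sting1 was split the same way, with 44.8 to 56.1 CPM in cultures 1 and 2 and 60.7 to 65.4 CPM in cultures 3 and 4. What the numbers stand for is not given in the labels. The exons of Tlr3 share 438 bases (8.19% of its exon length) with Gm45542, an antisense long non-coding RNA, so their reads may not be told apart.

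Aim2 (chr1:173178445-173293930, plus strand), the inflammasome DNA sensor, was at 11.1, 11.9, 11.2 and 10.6 CPM in m.11,944 60% cells and at 14.7, 17.8, 15.2 and 12 CPM in control cells. All 4 edited cultures lay below all 4 control cultures, as was the case for 2.26% of the 12930 genes tested. The difference was -0.39 on the log2 scale (SE 0.147), with an adjusted p of 1.00 by edgeR's quasi-likelihood test. When the replicate numbers were used to pair the cultures, Aim2 was called lower by the same test (-0.38, SE 0.103, adjusted p = 0.0836).

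Of the 10 genes, 5 passed the filter on low counts in the cultures (Sting1, Mavs, Tlr3, Tlr9 and Aim2) and 0 were called, where 0.0387% of 12930 genes were called and 3.53% had groups that did not overlap. At an unadjusted p under 0.05, 533 genes (4.12%) stood out, Aim2 among them, and DESeq2 called 84. With the replicate block, 7.08% of genes were called, and 4.08% were called lower, and of the 5 genes Aim2 alone was among them. Under the block, the adjusted p was 0.114 for Tlr3 (0.73, SE 0.229), 0.138 for Mavs (0.32, SE 0.110), 0.326 for Sting1 (-0.13, SE 0.072) and 0.918 for Tlr9 (0.06, SE 0.239) by edgeR.

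Among 116 other genes of the sensing pathways in 8 lists, 62 were tested in the cultures and 1 was called. This was Trim30a, a brake on the signalling of Toll-like receptors, which fell in the edited cultures, from 2.60 ± 0.419 to 0.711 ± 0.135 CPM (SD, n = 4 each; log2 fold change -1.84, SE 0.233, adjusted p = 0.0896 by edgeR). When any single culture was left out, 0 genes were called, so the call of Trim30a was lost. The replicate block kept that call (-1.84, adjusted p = 0.00239 by edgeR). Usp18, which removes ISG15 and dampens interferon signalling, was at 1.13 ± 0.348 CPM against 0.409 ± 0.137 CPM and was called higher with the replicate block alone (1.47, SE 0.290, adjusted p = 0.0363 by edgeR). The same block called Mndal, a DNA sensor of the Aim2 family, higher (0.73, adjusted p = 0.0959), and Unc93b1 (-0.84, adjusted p = 0.0534) and Traf6 (-0.33, adjusted p = 0.0911), a chaperone and a signalling ligase of the endosomal receptors, lower. It called 14.3% of the 7 DNA sensors tested, 18.2% of the 11 receptor partners, 18.2% of the 11 brakes and 0% of the other lists with tested genes. Over all 12930 genes it called 7.08%, and whether the lists differ from this share was not tested. All 5 of the tested RNA sensors outside the members, Rigi among them, had positive differences (median 0.22, against -0.0041 over all genes), and 0 of them were called with or without the block.

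**Figure D1:**
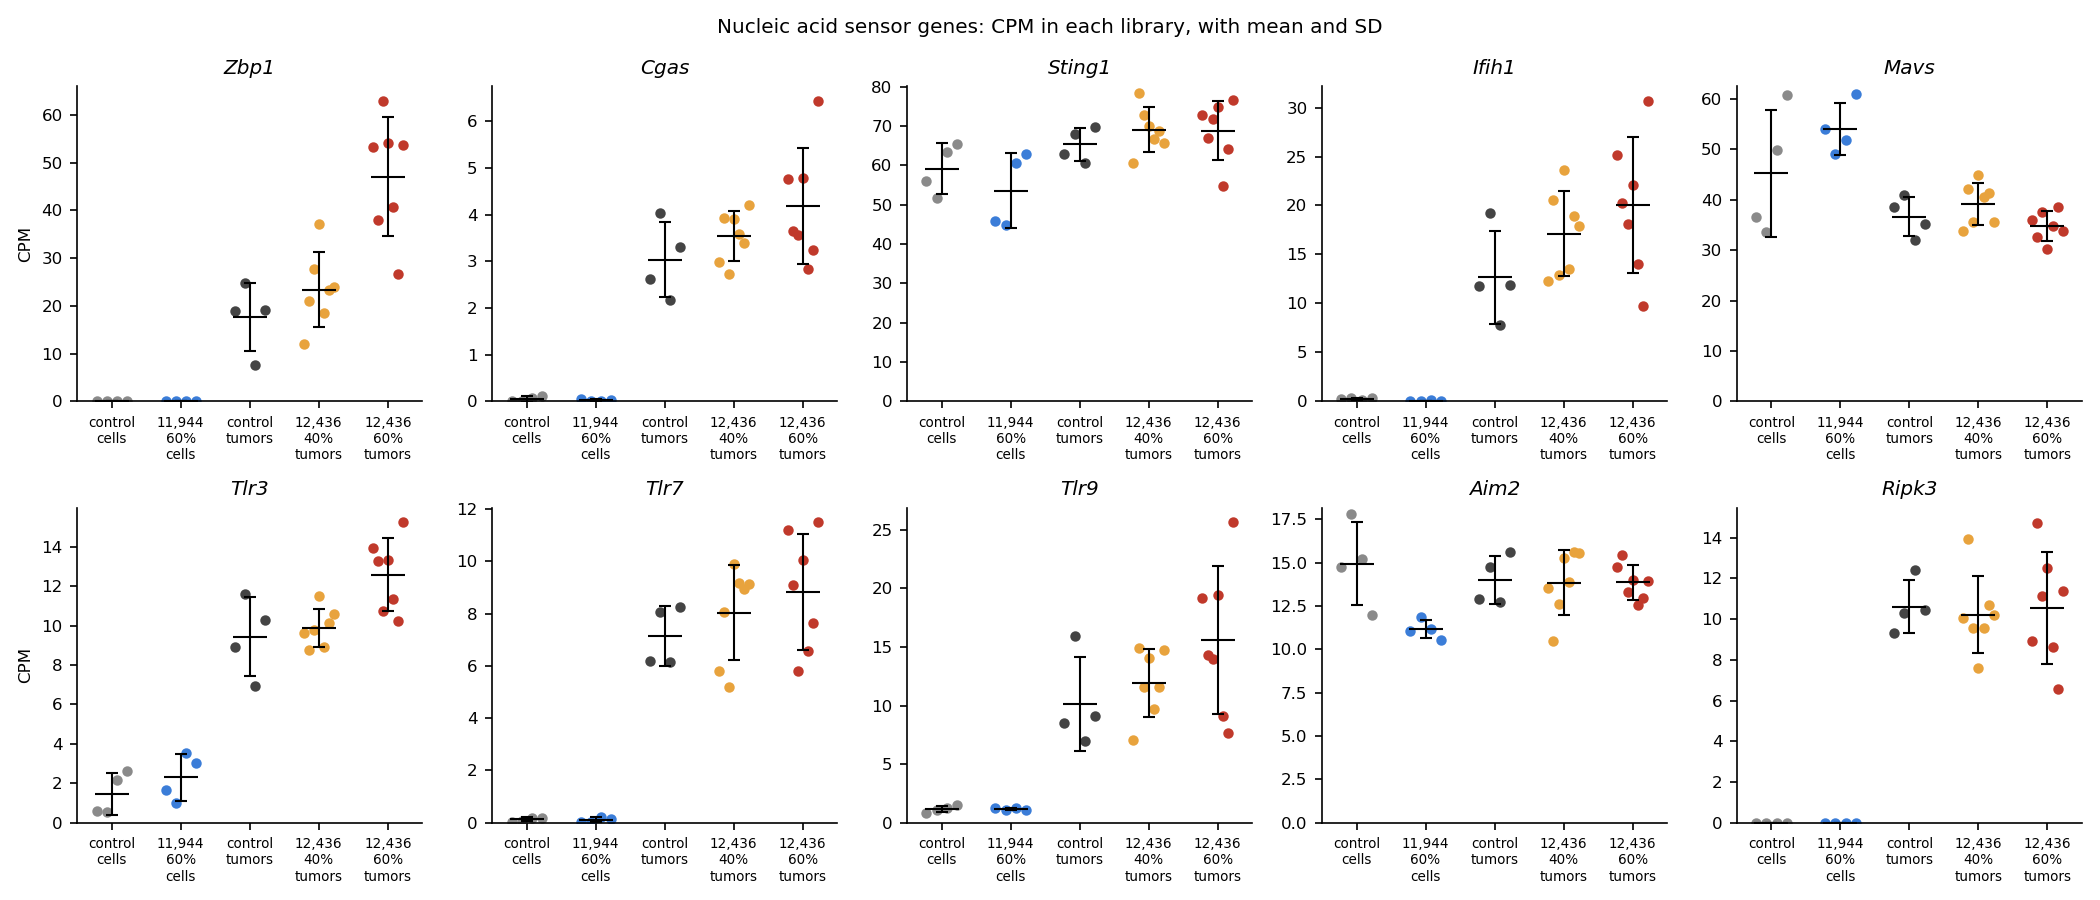
CPM of each of the 10 genes (y axis, from 0) in each library (points) of the 5 groups (x axis), with the mean and SD as bars. Zbp1, Ripk3, Cgas, Ifih1 and Tlr7 sit at or near 0 in the 8 cultures, and all 7 m.12,436 60% tumors, from 26.6 to 62.9 CPM, lie above the 4 control tumors for Zbp1.

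In tumors the same genes were readily measured. Control tumors had 1916 counts of Zbp1 over 4 libraries against 0 in the control cells. After scaling this was 596-fold more at a floor of 3 counts over the control cells, with a lower 95% counting limit of 484-fold. Ripk3 had 1188 counts against 0, 369-fold more at that floor, with a lower limit of 300-fold. Cgas was 62.7 times higher by summed counts (336 against 5 counts, 95% counting interval 26.6 to 194), Tlr7 was 52.6 times higher (789 against 14, 31.1 to 96.6) and Ifih1 was 50.6 times higher (1411 against 26, 34.4 to 77.8). Tlr9 and Tlr3 were 8.86 and 6.10 times higher. The exons of Cgas overlap those of a non-coding gene that is not among the genes counted.

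By edgeR's quasi-likelihood test, 7 of the 10 genes were called higher in control tumors than in control cells, in a comparison in which 65.2% of 15047 genes were called, 35.3% higher. Of these 7, Zbp1, Ripk3, Cgas, Ifih1 and Tlr7 had too few counts in the cultures for the filter and entered this fit through the tumors alone. Their calls were largely set by that filter, so they are described without a test, and of the 7 only Tlr9 and Tlr3 are read as tested. As a description, the fitted log2 differences were 5.88 for Cgas (SE 0.584), 5.64 for Ifih1 (SE 0.428) and 5.72 for Tlr7 (SE 0.375). Those tested were 3.16 for Tlr9 (SE 0.324, adjusted p = 4.31e-05) and 2.696 for Tlr3 (SE 0.493, adjusted p = 0.00125). Both adaptors and Aim2 were not called, with differences of 0.17 for Sting1 (SE 0.110, adjusted p = 0.199), -0.27 for Mavs (SE 0.192, adjusted p = 0.252) and -0.06 for Aim2 (SE 0.158, adjusted p = 0.750). Mavs was called lower in the tumors when all 26 libraries entered the fit (-0.30, adjusted p = 0.0525) and when control cells replicate 2 was left out (-0.41, adjusted p = 0.0835), and Sting1 was called higher (0.30, adjusted p = 0.0448) when genes needed 10 counts in every library. The leukocyte marker Ptprc went from 0 counts in the control cells to 1519 to 2876 counts in the control tumors. All 5 leukocyte, 8 macrophage and 8 T and NK cell markers had positive differences. Of these markers only 1, of the macrophages, passed the filter in the cultures, so the differences are given as a description. The part of leukocytes in the sensor levels was not tested, and growth in a mouse and the presence of host cells cannot be told apart here.

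Most of the other pathway genes tested were also higher in tumors than in culture, to a degree that differed between the lists. Of the 93 other pathway genes tested, 71 were called higher in control tumors and 8 lower, where 65.2% of all 15047 genes were called, 35.3% higher. In the comparison of the cultures, 62 of the 116 pathway genes had passed the filter. Genes near 0 in culture entered this fit through the tumors, so the counts of higher calls were partly set by the filter. All 14 RNA sensors were higher, such as Oasl2 (10.10 on the log2 scale, from 0.0413 to 46.7 CPM) and Ifit1 (9.41), with a median of 6.04 against 0.04 over all genes. Of the 12 tested DNA sensors 9 were higher and 1 was lower, and of the 13 cell death and inflammasome genes 7 were higher and 2 lower, among the former Il1b, the inflammasome cytokine, with 0 counts in the control cells and 12.5 ± 1.59 CPM (SD, n = 4) in the tumors. Irf7, the factor that amplifies type I interferon transcription, rose from 0.389 ± 0.178 to 35.2 ± 20.6 CPM (SD, n = 4 each).

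Per kilobase of exon, Sting1 had the highest level of the 10 genes in every group, at 16.8 CPM per kb in m.11,944 60% cells, 18.5 in control cells, 20.5 in control tumors and 21.6 in both groups of edited tumors. In control tumors Ripk3 (4.19 ± 0.509 CPM per kb), Zbp1 (4.10 ± 1.67) and Mavs (3.22 ± 0.344) followed, and these 3 lay within the SD of Zbp1 of each other. In m.12,436 60% tumors Zbp1 was at 10.96 ± 2.90 CPM per kb, second to Sting1, with Tlr9 (4.49), Ripk3 (4.17) and Mavs (3.06) behind it. Cgas was the lowest in the 3 tumor groups, at 0.584, 0.681 and 0.806 CPM per kb in control, 40% and 60% tumors. In the cultures Mavs and Aim2 came next after Sting1.

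Zbp1 had the largest of the 10 log2 differences where m.12,436 60% tumors were compared with control or 40% tumors, while between 40% and control tumors that of Ifih1 (0.44) was larger than that of Zbp1 (0.41). Control tumors had 18.9, 24.7, 7.64 and 19.2 CPM (17.6 ± 7.16, SD, n = 4). The m.12,436 40% tumors lay between 11.9 and 37.2 CPM with a median of 23.2 (23.4 ± 7.90, SD, n = 7), and the m.12,436 60% tumors between 26.6 and 62.9 CPM with a median of 53.3 (47.1 ± 12.4, SD, n = 7). All 7 of the 60% tumors were above all 4 control tumors, the 40% tumors overlapped both other groups, and the lowest tumor of all was control replicate 3.

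Described without a test, the log2 difference of Zbp1 was 1.42 (SE 0.315) between m.12,436 60% and control tumors, 0.41 (SE 0.306) between m.12,436 40% and control tumors, and 1.01 (SE 0.255) between m.12,436 60% and 40% tumors. These comparisons share tumors. Leaving out each library in turn gave 1.18 to 1.64, 0.17 to 0.63 and 0.89 to 1.15. Both lowest values against the control tumors came without control replicate 3. In that tumor the melanocyte lineage markers summed to 61.7 CPM, against 14.1 to 26.2 CPM in the other 17 tumors, and the fibroblast (3636 CPM) and endothelial (233 CPM) markers also had their highest sums. The leukocyte markers (360 CPM) and the T and NK cell markers (11.4 CPM) had their lowest sums there. Pmel, a melanosome protein, was called lower in 60% than in control tumors (-2.21, SE 0.510, adjusted p = 0.0456 by edgeR), although the groups overlapped. Whether this call rests on control replicate 3 was not tested. The part of these markers in the level of Zbp1 was not tested.

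Its partner Ripk3 had similar means in the 3 groups. Ripk3 was at 9.32, 10.3, 12.4 and 10.4 CPM in control tumors, at 7.61 to 13.9 CPM (median 10.04) in 40% tumors and at 6.55 to 14.7 CPM (median 11.1) in 60% tumors. The 3 ranges overlapped. The log2 difference of 60% from control tumors was -0.01 (SE 0.177), and that of 40% from control tumors was -0.05 (SE 0.177, adjusted p = 0.990 by edgeR).

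For the cytosolic DNA branch, Cgas was at 2.63, 4.03, 2.18 and 3.30 CPM in control tumors, at 2.73 to 4.21 CPM (median 3.59) in 40% tumors and at 2.84 to 6.44 CPM (median 3.65) in 60% tumors. Sting1 was at 63.0, 68.0, 60.6 and 69.7 CPM, at 60.4 to 78.4 CPM (median 68.8) and at 54.8 to 76.7 CPM (median 71.8). Aim2 was at 12.9, 14.7, 12.7 and 15.6 CPM, at 10.5 to 15.6 CPM (median 13.9) and at 12.6 to 15.5 CPM (median 14). All 3 overlapped between every pair of tumor groups, with means that differed by -0.01 (Aim2, SE 0.098) to 0.47 (Cgas, SE 0.209) on the log2 scale between 60% and control tumors.

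For the cytosolic RNA branch, Ifih1 was at 11.8, 19.2, 7.76 and 11.9 CPM in control tumors, at 12.3 to 23.7 CPM (median 17.9) in 40% tumors and at 9.72 to 30.7 CPM (median 20.2) in 60% tumors. Its adaptor Mavs was at 38.5, 41.0, 32.0 and 35.1 CPM, at 33.9 to 44.9 CPM (median 40.5) and at 30.2 to 38.6 CPM (median 34.9). Ifih1 therefore had the second largest mean difference of the 10 genes between 60% and control tumors (0.66, SE 0.283) and Mavs the lowest (-0.07, SE 0.086), and the groups overlapped for both.

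For the endosomal receptors, Tlr3 was at 8.94, 11.6, 6.93 and 10.3 CPM in control tumors, at 8.75 to 11.5 CPM (median 9.78) in 40% tumors and at 10.2 to 15.3 CPM (median 13.3) in 60% tumors. Tlr9 was at 8.47, 16, 6.93 and 9.12 CPM, at 7.05 to 14.9 CPM (median 11.6) and at 7.65 to 25.7 CPM (median 14.3). Tlr7 was at 6.19, 8.06, 6.14 and 8.24 CPM, at 5.18 to 9.90 CPM (median 8.94) and at 5.82 to 11.5 CPM (median 9.09). The log2 differences of 60% from control tumors were 0.41 (SE 0.129), 0.62 (SE 0.303) and 0.31 (SE 0.199), again with overlap.

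Between m.12,436 60% and control tumors, 2.31% of 16213 genes were called and 4.18% had groups that did not overlap. Of the 10 genes, 1 (Zbp1) had groups that did not overlap, higher at 60% as were 1.40% of all genes, and nothing is read from this count, since that contrast was known when the list was made.

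**Figure D2:**
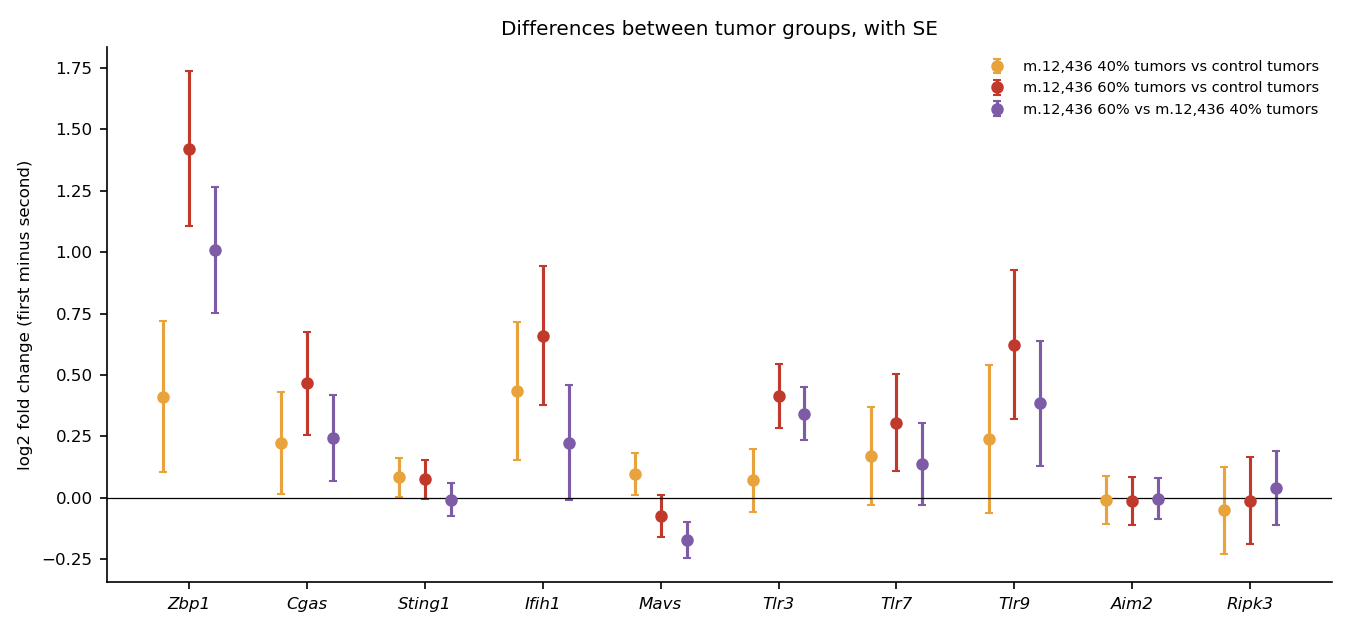
Log2 fold change (y axis, first group minus second) of each gene (x axis) in 3 comparisons between tumor groups, with the SE as bars, on the fit that all 18 tumors share. Zbp1 lies at 1.42, 0.41 and 1.01, while Sting1, Aim2 and Ripk3 lie between -0.05 and 0.08 in all 3.

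The comparison of m.12,436 40% with control tumors asks what a lower mutant load does, and it shares its control tumors with the contrast above. By edgeR's quasi-likelihood test 0 of 16213 genes were called (0%), 825 (5.09%) had an unadjusted p under 0.05 and DESeq2 called 5. The 9 genes other than Zbp1 had adjusted p values from 0.924 (Ifih1, 0.44, SE 0.282) to 0.997 (Aim2, -0.01, SE 0.098). With SEs of 0.080 for Sting1 to 0.301 for Tlr9, small differences could not be detected for the more variable genes.

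Between m.12,436 60% and 40% tumors, which share the 60% tumors with the first contrast, 1.81% of genes were called, and 0 of the 9 genes other than Zbp1 were among them. By edgeR's quasi-likelihood test Tlr3 came closest, at 0.34 (SE 0.109, unadjusted p = 0.00508, adjusted p = 0.144). DESeq2 called it higher (adjusted p = 0.0755), and the adjusted p was 0.107 to 0.828 under the other alternatives. Mavs differed by -0.17 (SE 0.073, unadjusted p = 0.0293, adjusted p = 0.290). The other 7 genes had adjusted p values of 0.525 (Tlr9) to 0.994 (Aim2).

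The 5 leukocyte markers summed to 360 to 540 CPM in control tumors, 376 to 506 CPM in m.12,436 40% tumors and 430 to 765 CPM in m.12,436 60% tumors, and 0 of the 5 were called in any of the 3 tumor comparisons. Their median log2 difference was 0.47 between 60% and control tumors, 0.09 between 40% and control tumors and 0.40 between 60% and 40% tumors. Ptprc, the pan-leukocyte phosphatase CD45, was at 68.8 ± 17.9 CPM (SD, n = 4), 74.8 ± 13.7 CPM (SD, n = 7) and 105 ± 25.6 CPM (SD, n = 7). The 8 T and NK cell markers summed to 11.4 to 34.4, 11.8 to 26.3 and 12 to 62 CPM, and all 8 had positive differences between 60% and control tumors (median 0.78), with 0 called. The 8 macrophage markers summed to 1162 to 1437, 1144 to 1447 and 987 to 1757 CPM.

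With the mean log2 CPM of the 5 leukocyte markers as a covariate, the difference of Zbp1 between 60% and control tumors was 0.86 (SE 0.282) in place of 1.42. Those of Cgas, Ifih1, Tlr7, Tlr9 and Sting1 changed sign, to -0.10, -0.11, -0.18, -0.30 and -0.10, and that of Tlr3 was 0.11. Mavs, Aim2 and Ripk3 were at -0.10, -0.13 and -0.12, from -0.07, -0.01 and -0.01. With the score in the model, 27 genes were called in place of 374, and group and leukocyte content are only partly separable in 18 tumors.

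Between 60% and 40% tumors, the covariate took the difference of Zbp1 from 1.01 to 0.54 and that of Tlr3 from 0.34 to 0.08. Those of Cgas, Ifih1, Tlr7, Tlr9 and Ripk3 changed sign, from 0.24, 0.22, 0.14, 0.38 and 0.04 to -0.25, -0.45, -0.26, -0.41 and -0.05. Between 40% and control tumors all 10 kept their sign, with Zbp1 at 0.32 and Ifih1 at 0.34.

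**Figure D3:**
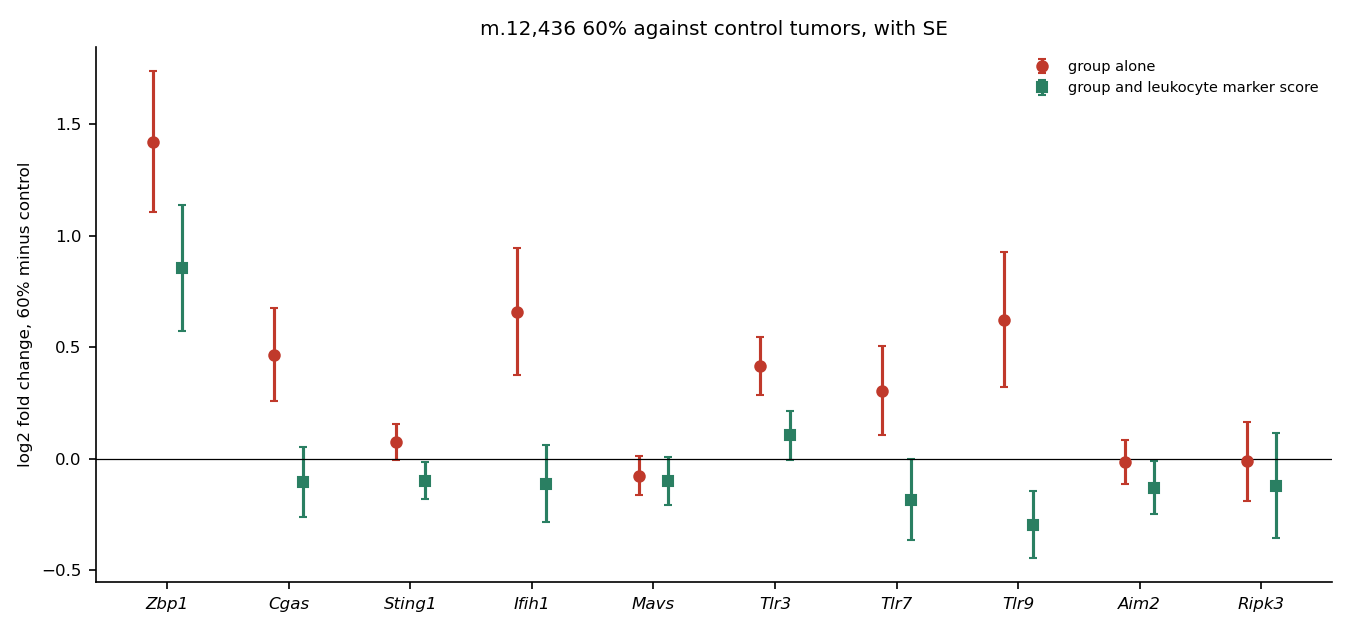
Log2 fold change of each gene between m.12,436 60% and control tumors (y axis, with SE) from the model with group alone (circles) and from the model that also holds the leukocyte marker score (squares). Zbp1 goes from 1.42 to 0.86, and Cgas, Ifih1 and Tlr9 go from 0.47, 0.66 and 0.62 to -0.10, -0.11 and -0.30.

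Within the 7 m.12,436 60% tumors, the genes differed in how closely they followed that score. The strongest relations were those of Tlr9 (r = 0.962, rho = 0.964, adjusted exact permutation p = 0.00992 for r and 0.0185 for rho) and Cgas (r = 0.958, rho = 1.00, adjusted p = 0.00397 and 0.00794). Ifih1 (r = 0.924, rho = 0.929, adjusted p = 0.0132 and 0.0337) and Tlr3 (r = 0.938, rho = 0.857, adjusted p = 0.0218 and 0.0794) were near. Without the 2 tumors farthest from the median score, r was 0.938 for Tlr9, 0.940 for Cgas, 0.953 for Ifih1 and 0.964 for Tlr3. Sting1 (r = 0.832, rho = 0.964, adjusted exact permutation p = 0.0544 and 0.0185) and Tlr7 (r = 0.869, rho = 0.857, adjusted exact permutation p = 0.0544 and 0.0794) came next, with r at 0.611 and 0.921 without the 2 farthest tumors. The values were adjusted over 20 relations, all tested by two-sided exact permutation, 10 genes in each of 2 groups.

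For Zbp1 in these tumors, r was 0.549 and rho 0.464 (adjusted exact permutation p = 0.262 and 0.416) and r was -0.128 without the 2 farthest tumors. In the 7 m.12,436 40% tumors r was 0.891 and rho 0.821 (adjusted exact permutation p = 0.0544 and 0.0975), and r was 0.139 without the 2 farthest. The few tumors left span a narrower range of scores and cannot show whether a relation remains. Mavs (r = -0.558) and Ripk3 (r = 0.574) had adjusted exact permutation p values of 0.262 for r in the 60% tumors. In the 40% tumors the genes that followed the score at 60% had adjusted exact permutation p values for r of 0.260 (Cgas, r = 0.615), 0.193 (Ifih1, r = 0.659), 0.262 (Tlr3, r = 0.528) and 0.0784 (Tlr9, r = 0.812). Their rho was 0.429, 0.429, 0.607 and 0.429 (adjusted exact permutation p = 0.416, 0.416, 0.333 and 0.416). Without the 2 farthest 40% tumors r was 0.461, -0.080, 0.306 and 0.465. The differences between genes and between groups in this relation were not tested.

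**Figure D4:**
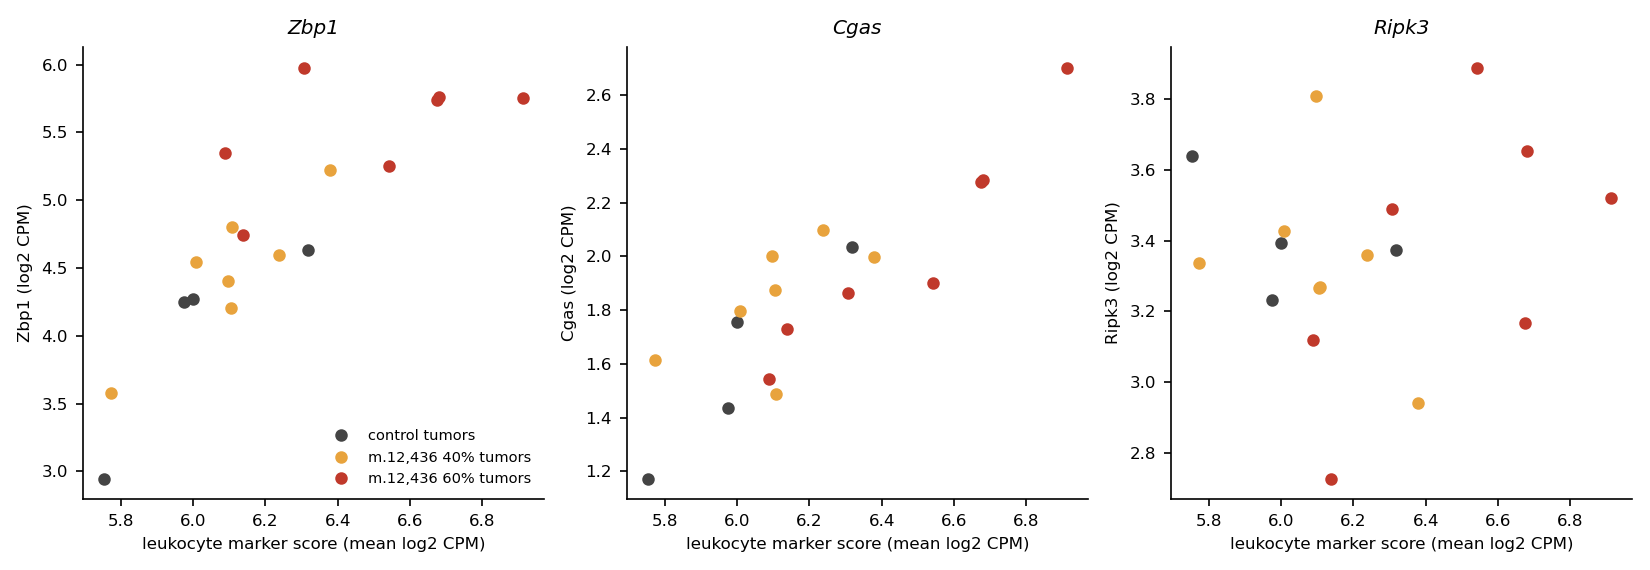
Log2 CPM of Zbp1, Cgas and Ripk3 (y axes) against the leukocyte marker score, the mean log2 CPM of 5 markers (x axes), in each of the 18 tumors. Cgas rises with the score among the 60% tumors (r = 0.958), 6 of the 7 60% tumors have more Zbp1 than every 40% and control tumor, and Ripk3 has r = 0.574 among the 60% tumors.

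Across the 18 tumors, after the mean of each group was taken away, the genes most like Zbp1 among 12205 compared were Sirpb1a (r = 0.918), Iigp1 (r = 0.907), Tgtp1 (r = 0.901), Samd9l (r = 0.900) and Tgtp2 (r = 0.896), by Pearson's r of log2 CPM. Iigp1, Tgtp1 and Tgtp2 are interferon-inducible GTPases. Sirpb1a, Iigp1 and both Tgtp genes belong to families of near-identical copies whose reads may have been divided between them. Of the other 9 members, Ifih1 (0.745), Tlr9 (0.727) and Tlr3 (0.686) were the closest to Zbp1, Mavs (0.420), Tlr7 (0.327) and Aim2 (0.319) were further away and Ripk3 (-0.050) was the furthest. Ptprc had r = 0.797, and these tumors share their libraries and their leukocyte content.

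Of the 96 other pathway genes tested in the tumors, 6 were called higher and 0 lower between 60% and control tumors, 0 in either direction between 40% and control tumors, and 4 higher and 1 lower between 60% and 40% tumors. The 2.31%, 0% and 1.81% of all genes given above are the background to these counts.

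Among the DNA sensors, 2 of 13 were called higher between 60% and control tumors. These were Ifi204, a member of the Aim2-like receptor family, at 64.1 ± 13.0 CPM (SD, n = 7) against 31.8 ± 8.05 CPM (SD, n = 4; 1.01, SE 0.217, adjusted p = 0.0331 by edgeR), and Ifi211, of the same family, at 56.2 ± 12 against 32.9 ± 4.77 CPM (0.77, SE 0.174, adjusted p = 0.0404). Neither overlapped between the groups, and 11 of the 13 differences were positive (median 0.81, against -0.0025 over all genes). The reads of this cluster of related genes may have been divided between its copies.

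Among the RNA sensors, 0 of 14 were called in any of the 3 tumor comparisons, although all 14 differences were positive between 60% and control tumors (median 0.91) and 13 of 14 between 40% and control tumors (median 0.53). The smallest p was that of Oasl2, at 94.4 ± 30.2 against 46.7 ± 20.3 CPM (1.02, SE 0.317, adjusted p = 0.135 by edgeR). Of the 16 interferon target genes 0 were called, with 16 positive differences at 60% (median 0.85) and 16 at 40% (median 0.49), and Parp14 with the smallest p at 60% (0.80, SE 0.244, adjusted p = 0.132). The interferon genes themselves could hardly be measured, with at most 2 counts in any tumor for all but Ifng. Of 20, 10 had 0 counts in all 18 tumors, Ifnb1 had 11 counts in all, and Ifng, with 174 counts, was the only one tested (0.509 ± 0.335 against 0.255 ± 0.180 CPM, adjusted p = 0.430 at 60%).

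Among the kinases and transcription factors, Irf5, a factor downstream of the endosomal receptors, was called higher at 60% both against control tumors (54.9 ± 11.7 against 35.5 ± 6.84 CPM, 0.63, SE 0.157, adjusted p = 0.0614) and against 40% tumors (37.8 ± 5.26 CPM, 0.54, SE 0.131, adjusted p = 0.0674 by edgeR). Irf1, an interferon-gamma target, was called against 40% tumors (0.47, SE 0.124, adjusted p = 0.0887). Among the cell death and inflammasome genes, Casp1 (0.67, SE 0.175, adjusted p = 0.0704) and Casp4 (0.69, SE 0.188, adjusted p = 0.0820), the inflammatory caspases, were called higher against control tumors, and Casp4 (0.60, adjusted p = 0.0815) and Nlrp3 (0.43, adjusted p = 0.0831) against 40% tumors. Aim2, a sensor upstream of Casp1, had 13.9 ± 1.02 CPM at 60% and 14 ± 1.39 CPM in control tumors.

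Among the brakes, Adar, which edits double-stranded RNA and limits both Ifih1 and Zbp1, was called higher between 60% and control tumors, at 102 ± 11.5 against 74.7 ± 15.7 CPM (0.45, SE 0.115, adjusted p = 0.0683 by edgeR). Rnaseh2a, the catalytic subunit of the nuclease that removes ribonucleotides from DNA, was called lower between 60% and 40% tumors, at 38.3 ± 2.02 against 45.4 ± 4.63 CPM (-0.25, SE 0.060, adjusted p = 0.0575). Of the 13 partners of the endosomal receptors 0 were called in the tumors, with Irak2 at the smallest p between 60% and control tumors (0.31, SE 0.098, adjusted p = 0.134). Between 40% and control tumors the smallest p of each list belonged to Oas2 among the RNA sensors (0.88, SE 0.446), Ifi204 among the DNA sensors (0.70, SE 0.215), Cnpy3 among the receptor partners (-0.16, SE 0.064), Rela among the factors (-0.11, SE 0.054), Fadd among the cell death genes (-0.17, SE 0.094), Rnf125 among the brakes (0.51, SE 0.193) and Trim25 among the interferon targets (0.31, SE 0.104), each with an adjusted p of 0.924 by edgeR. Between 60% and 40% tumors, the lists without a call were led by Nod2 (0.57, SE 0.224), Hmgb1 (-0.17, SE 0.052), Irak2 (0.25, SE 0.083) and Cxcl10 (0.72, SE 0.376). With the leukocyte score as a covariate, 0 genes of the 8 lists were called in any of the 3 comparisons, and the median of the RNA sensors between 60% and control tumors was 0.07 in place of 0.91 and that of the interferon targets 0.01 in place of 0.85. Between 40% and control tumors these medians were 0.41 in place of 0.53 and 0.36 in place of 0.49. Between 60% and 40% tumors they changed sign, to -0.38 from 0.31 for the RNA sensors and to -0.34 from 0.23 for the interferon targets.

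**Figure D5:**
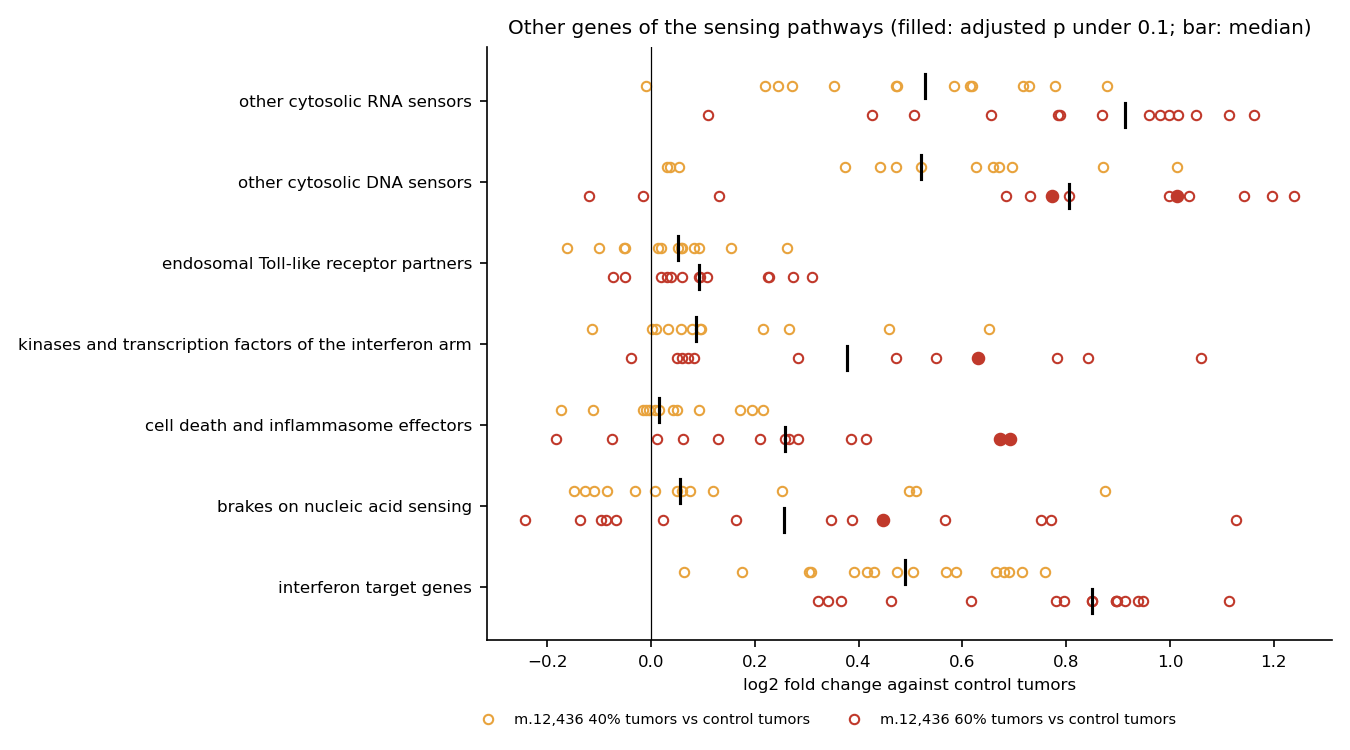
Log2 fold change (x axis) against control tumors of each tested gene of 7 lists (y axis) in m.12,436 40% (orange) and 60% tumors (red), with the median as a bar and genes with an adjusted p under 0.1 filled. The RNA sensors and the interferon target genes lie to the right of 0 in both groups, with medians of 0.53 and 0.91 and of 0.49 and 0.85, except 1 RNA sensor at 40%, and filled points occur at 60% alone.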

How the data were processed

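RNA was sequenced from cultures and subcutaneous tumor fragments of B78-D14 mouse melanoma cells. STAR in two-pass mode and GRCm39 were used for alignment, and the authors deposited raw counts per gene, made with featureCounts against Ensembl gene models. The strand setting is not given in the sources used here. Of 47 columns of counts, 26 were matched to a labelled sample by name and 21 were not used, so that the other edited groups were not analysed here. No library was a copy of another.

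Levels are counts per 1000000 (CPM) after TMM scaling over the 26 libraries, and log2 CPM used a prior count of 2. Cells and tumors were fitted separately with the quasi-likelihood test of edgeR 4.0.16 in R 4.3.3, two-sided, on genes kept by filterByExpr, with Benjamini–Hochberg adjustment over all genes kept and the threshold of the study (adjusted p under 0.1). Alternatives used DESeq2 1.42.0, limma 3.58.1 (voom), other scalings and filters, a replicate block, a leukocyte marker score as a covariate and the removal of each library. The model was tested on simulated data. Correlations across tumors were tested by exact permutation. Totals ran from 16475735 to 36173502 counts per library, and intervals and floors cover counting error only.

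Replicate numbers come from the sample labels. Across genes, deviations of same-numbered edited and control cultures from their group means correlated at r = 0.718 to 0.832. The mean for different numbers was -0.264, and taking away the group means itself pulls this value below 0. Cultures 1 and 2 also differed from cultures 3 and 4 for Tlr3 and Sting1. Pairs of cultures and such a split cannot be told apart by these correlations, so the pairing by number is an assumption. The study names no block, so the fits reported first hold none, and blocked values are given beside the culture results. Tumors were not treated as paired.

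The members, gene lists and comparisons were chosen with earlier results of these data known. No test is given for a member in the comparison of m.12,436 60% with control tumors, nor for Zbp1 between any tumor groups, because those values were known when the genes were chosen. From the other lists, up to 4 genes past the threshold with the smallest p were named per comparison, or else the gene with the smallest p, besides the leukocyte marker Ptprc and the 5 genes most like Zbp1. Other genes named were chosen after their values were seen. Gene positions came from GENCODE vM39, in which 56017 of the 56748 genes were found. Promoters were RefSeq sequences, placed on GRCm39 by exact match.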

Additional observations from a re-analysis of the deposited data

How the results depend on the processing

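Of 815 values of single members under alternatives, 769 kept their sign and 46 changed it, of which 0 were called under either setting. With the leukocyte score, 5 changed sign between 60% and control tumors and 5 between 60% and 40% tumors, all given above. The other 36 belonged to differences of at most 0.07 on the log2 scale. Calls that changed and untested values that moved by over 1 SD are given above. The counts of called genes moved further. In the cultures, 5 genes were called and 0 with at least 10 counts in every library, 84 with DESeq2, 916 with the replicate block and 0 to 0 without each library. Between m.12,436 40% and control tumors, 0 were called, 5 with DESeq2 and 0 to 3 without each library. Between m.12,436 60% and control tumors, 374 were called, 150 at an adjusted p under 0.05, 1056 with DESeq2, 27 with the leukocyte score, 943 with only these groups in the fit and 66 (without control replicate 3) to 717 (without control replicate 2) when each library was left out. Between m.12,436 60% and 40% tumors, 293 were called, 113 at an adjusted p under 0.05, 744 with DESeq2, 60 with the leukocyte score, 178 without a filter and 108 to 452 without each library. The causes were not tested. In the tumors, same-numbered samples of 60% and control groups did not deviate together (r = -0.346 to -0.0245), and the replicate block gave 178 calls in place of 374. The block changed no member's call other than that of Aim2 in the cultures.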
